A study of Mus musculus with 24 samples.

Results

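The adrenergic receptors analysed here are 7 genes, Adra1a, Adra1b, Adra1d, Adra2a, Adra2b, Adra2c and Adrb1, chosen by symbol among the 24340 genes that the 6 deposited comparison tables share. Other beta receptor genes are not analysed here, so counts over the 7 describe these genes and not the whole family. The tables come from RNA-seq of the striatum of R6/1 mice, a Huntington's disease line that carries a hemizygous transgene, the first exon of human HTT with an expanded CAG repeat, on a C57BL/6J background, and of their wild type (WT) littermates. The 24 libraries fell into 4 groups, with 5 for WT-vehicle (wild type mice given the solvent, dimethyl sulfoxide in saline), 6 for R6/1-vehicle (R6/1 mice given the solvent), 6 for WT-RGFP109 and 7 for R6/1-RGFP109 (wild type and R6/1 mice given RGFP109, an inhibitor of HDAC1 and HDAC3, at 30 mg/kg). Only males were used. All mice received intraperitoneal injections 5 times per week for 3 weeks from an age of 11 to 14 weeks, and striata were collected at 14 to 17 weeks, 18 h after the last injection. Each table compares 1 pair of groups and gives 1 pooled value per group and gene, in FPKM (fragments scaled by transcript length and sequencing depth). The tables were scaled separately, and the values of a group differed between them by at most 1.04-fold. The spread between mice is not visible in these pooled values, and values per library were not used here. For this reason no difference below was tested, and all are descriptions of the pooled groups. A difference was counted as past the fold when the log2 ratio of (FPKM + 0.05) exceeded 0.5 in size, and a gene was counted as measured when its 2 values averaged at least 0.1 FPKM, which all 7 receptors did in every comparison.

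Adrenergic receptors are G protein-coupled receptors for noradrenaline and adrenaline. In the forebrain the main source of noradrenaline is the locus coeruleus, whose fibers reach the neocortex densely and most of the striatum sparsely. Alpha-1 receptors couple to Gq and phospholipase C, alpha-2 receptors couple to Gi and Go, lower cAMP and also serve as autoreceptors on noradrenergic terminals, and beta receptors couple to Gs and raise cAMP. The striatum is known for its high content of the alpha-2C subtype, which is carried by the projection neurons.

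On the mm10 build, the tables place Adra1a at chr14:66635251-66771168, Adra1b at chr11:43774605-43901237, Adra2a at chr19:54045182-54048982, Adra2b at chr2:127363286-127367221, Adra2c at chr5:35278566-35281763 and Adrb1 at chr19:56722372-56724862. None of these 6 shared its locus with another gene of the tables, and none overlapped another gene of either strand in GENCODE M21. Adra1d differed in this respect. Its locus in the tables, chr2:131127412-131604824, was given to 12 other genes as well, while RefSeq places the gene itself at chr2:131545357-131562497. The span of the antisense gene Gm14285 touches at least 1 exon of Adra1d, and overlap exon by exon was not computed. The kit's strand setting is not given in the sources used here, so whether reads of Gm14285 entered the value of Adra1d is unknown. In GENCODE, Adra2b, Adra2c and Adrb1 have coding transcripts of 1 exon each, Adra2a of 1 or 2 exons, Adra1d of 2 exons, Adra1a of 3 to 4 exons and Adra1b of 2 to 5 exons.

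Promoter windows of 300 bases (250 before to 50 after the transcription start) were available from RefSeq on GRCm38.p6 for 5 of the 7 receptors. The windows of Adra2c, the most abundant receptor here, of Adra2a, and of both starts of Adra1b are printed because these genes lay past the fold between the genotypes with vehicle and their start regions differ in composition. They lie at chr5:35278316-35278615 (Adra2c, plus strand), chr19:54045009-54045308 (Adra2a, plus strand), chr11:43901188-43901487 (Adra1b, upstream start, minus strand) and chr11:43836440-43836739 (Adra1b, internal start, minus strand). Capitals mark matches to 5 motifs, searched on both strands. The TATA box was searched as TATAAA and the CCAAT box by the letters of its name. The GC box was searched as GGGCGG, the half-site of the cAMP response element (CRE) as TGACG and the E-box as CACGTG, and no matches overlapped.
Adra2c: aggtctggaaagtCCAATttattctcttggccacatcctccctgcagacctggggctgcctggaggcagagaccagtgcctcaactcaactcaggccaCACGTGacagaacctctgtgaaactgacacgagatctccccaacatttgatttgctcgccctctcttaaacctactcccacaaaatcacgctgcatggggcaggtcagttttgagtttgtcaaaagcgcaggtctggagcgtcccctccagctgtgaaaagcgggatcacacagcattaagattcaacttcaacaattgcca
Adra2a: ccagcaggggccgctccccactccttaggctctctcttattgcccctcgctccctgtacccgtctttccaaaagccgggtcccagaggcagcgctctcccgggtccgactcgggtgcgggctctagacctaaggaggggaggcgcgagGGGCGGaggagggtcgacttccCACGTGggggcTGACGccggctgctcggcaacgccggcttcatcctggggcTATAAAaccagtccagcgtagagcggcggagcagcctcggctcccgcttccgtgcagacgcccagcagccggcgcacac
Adra1b upstream: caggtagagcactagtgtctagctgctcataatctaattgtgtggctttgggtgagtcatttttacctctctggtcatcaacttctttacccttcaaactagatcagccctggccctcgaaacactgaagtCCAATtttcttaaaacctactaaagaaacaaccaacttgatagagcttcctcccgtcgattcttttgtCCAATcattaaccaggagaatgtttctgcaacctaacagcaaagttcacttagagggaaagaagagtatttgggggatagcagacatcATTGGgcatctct
Adra1b internal: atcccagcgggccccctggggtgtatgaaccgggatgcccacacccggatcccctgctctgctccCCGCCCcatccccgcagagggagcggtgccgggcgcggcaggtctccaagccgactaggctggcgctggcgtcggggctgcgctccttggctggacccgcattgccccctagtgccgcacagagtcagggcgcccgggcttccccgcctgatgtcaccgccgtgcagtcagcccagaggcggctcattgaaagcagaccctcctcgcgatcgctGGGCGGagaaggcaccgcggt
The Adra2a window had a TATA box 29 bases before the start, a CRE half-site at 69, an E-box at 80 and a GC box at 102 bases before it, and 28 CpG dinucleotides at 68.7% GC. The Adra2c window had 7 CpG at 51.3% GC, with a CCAAT box and an E-box and none of the other 3 motifs. The start regions of Adra1b were unlike each other, with 3 CpG at 42.3% GC and 3 CCAAT boxes upstream, against 28 CpG at 71.3% GC and 2 GC boxes at the internal start. Adrb1 (72.3% GC, 28 CpG) and Adra2b (68.0% GC, 29 CpG) had CpG-rich windows like that of Adra2a. Among all 32851 RefSeq windows of this length, 13.6% held the TATA box, 37.4% the CCAAT box, 35.7% the GC box, 20.8% the CRE half-site and 7.15% the E-box. The motif matches are descriptions of sequence, and no motif was shared by all 6 windows.

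In the vehicle groups all 7 receptors had lower values in R6/1 mice than in wild type mice, and the summed level of the 7 genes was 24.9 FPKM in R6/1-vehicle against 42.8 FPKM in WT-vehicle. 4 of 7 receptors (Adra1b, Adra1d, Adra2a and Adra2c) were lower by more than the fold, where 12.9% of the 16719 genes measured were. The median log2 ratio of the receptors was -0.75, against -0.02 over all genes. Adra2c alone made up 50.5% of the summed level in WT-vehicle and 48.0% in R6/1-vehicle. The plot of receptor levels shows the 4 group values of each gene.

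**Figure D1:**
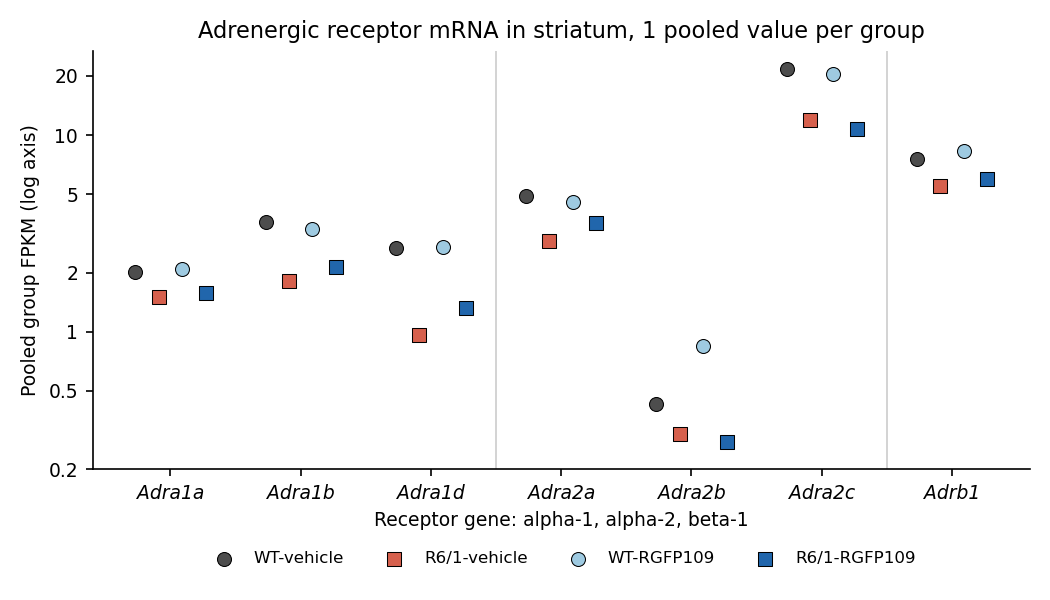
Pooled FPKM (log axis) of each receptor gene in the 4 groups, with 1 value per group from the table that compares the genotypes under the same treatment. Adra2c lies highest in each group (10.8 to 21.6 FPKM), Adra2b lowest (0.276 to 0.846 FPKM), and both R6/1 values (squares) lie below both wild type values (circles) for all 7 genes.

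Among the alpha-1 receptors, which couple to Gq, Adra1d had 2.67 FPKM in WT-vehicle and 0.960 in R6/1-vehicle mice, and 2.71 in WT-RGFP109 and 1.32 in R6/1-RGFP109 mice. Its log2 ratio between the genotypes was -1.43 with vehicle, which was lower than that of 98.1% of genes, and -1.02 with RGFP109. It was the largest receptor difference with vehicle, but its locus is the shared one described above. Of the 12 genes with the same locus, Cdc25b had the next lowest log2 ratio with vehicle at -0.97 and Rnf24 the highest at 0.05, so the genes of that locus did not differ alike. Adra1b had 3.60 FPKM in WT-vehicle and 1.81 in R6/1-vehicle mice, and 3.34 in WT-RGFP109 and 2.14 in R6/1-RGFP109 mice. The R6/1 value of Adra1b was 49.6% lower with vehicle (log2 ratio -0.97) and 35.8% lower with RGFP109 (log2 ratio -0.63). Adra1a, the third alpha-1 gene, had 2.01, 1.50, 2.09 and 1.58 FPKM in the same order of groups. Its log2 ratios of -0.40 with vehicle and -0.39 with RGFP109 stayed within the fold, and its 2 wild type values were close, as were its 2 R6/1 values.

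Among the alpha-2 receptors, which couple to Gi and Go, Adra2c had 21.6 FPKM in WT-vehicle and 11.96 in R6/1-vehicle mice, and 20.5 in WT-RGFP109 and 10.8 in R6/1-RGFP109 mice. The R6/1 value was 44.6% lower with vehicle (log2 ratio -0.85) and 47.6% lower with RGFP109 (log2 ratio -0.93), so that the difference was about as large under either treatment. Adra2a, the main alpha-2 autoreceptor subtype and a receptor of the neocortex, had 4.88 FPKM in WT-vehicle and 2.88 in R6/1-vehicle mice, and 4.56 in WT-RGFP109 and 3.57 in R6/1-RGFP109 mice. Its R6/1 value was 41.1% lower with vehicle (log2 ratio -0.75) and 21.7% lower with RGFP109 (log2 ratio -0.35), on either side of the fold. Adra2b was the rarest receptor, with 0.430 FPKM in WT-vehicle and 0.301 in R6/1-vehicle mice, and 0.846 in WT-RGFP109 and 0.276 in R6/1-RGFP109 mice. Only WT-RGFP109 stood apart among these 4 values, and the genotype log2 ratio of Adra2b was accordingly -0.45 with vehicle and -1.46 with RGFP109. Adra2b had under 1 FPKM in every group, and its ratios depend on the pseudocount, so that its difference of 0.89 between the treatments in wild type mice was 0.36 with a pseudocount of 1 FPKM.

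Adrb1, the beta-1 receptor, which couples to Gs, had 7.57 FPKM in WT-vehicle and 5.49 in R6/1-vehicle mice, and 8.28 in WT-RGFP109 and 5.99 in R6/1-RGFP109 mice. Its R6/1 value was 27.5% lower with vehicle (log2 ratio -0.46) and 27.7% lower with RGFP109 (log2 ratio -0.46), just within the fold both times. It was the second most abundant receptor in each group. In WT-vehicle the order of levels was Adra2c, Adrb1, Adra2a, Adra1b, Adra1d, Adra1a and Adra2b, and neighbours differed by 2.85-fold between Adra2c and Adrb1, by 4.67-fold between Adra1a and Adra2b and by 1.33- to 1.55-fold elsewhere. In both R6/1 groups Adra1a lay above Adra1d, and no other position differed. Values per mouse were not used here, so it cannot be said from the pooled values which of these neighbours differed beyond the spread.

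With RGFP109 all 7 receptors were again lower in R6/1 mice, and 4 of 7 (Adra1b, Adra1d, Adra2b and Adra2c) were lower by more than the fold, where 11.2% of the 16734 genes measured were. The summed receptor level was 25.6 FPKM in R6/1-RGFP109 and 42.4 FPKM in WT-RGFP109. Both genotype comparisons had 4 receptors past the fold, with Adra2a on the list only with vehicle and Adra2b only with RGFP109. The log2 ratio with RGFP109 minus that with vehicle was 0.34 for Adra1b, 0.41 for Adra1d and 0.40 for Adra2a, close to 0 for Adra1a (0.01) and Adrb1 (0.00), -0.08 for Adra2c and -1.01 for Adra2b. Of the 7 receptors, 1 (Adra2b) had a difference of ratios above 0.5 in size, as had 8.68% of the 16469 genes measured in both comparisons. The middle 90% of those genes lay between -0.42 and 0.49, a range that holds the other 6 receptors.

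**Figure D2:**
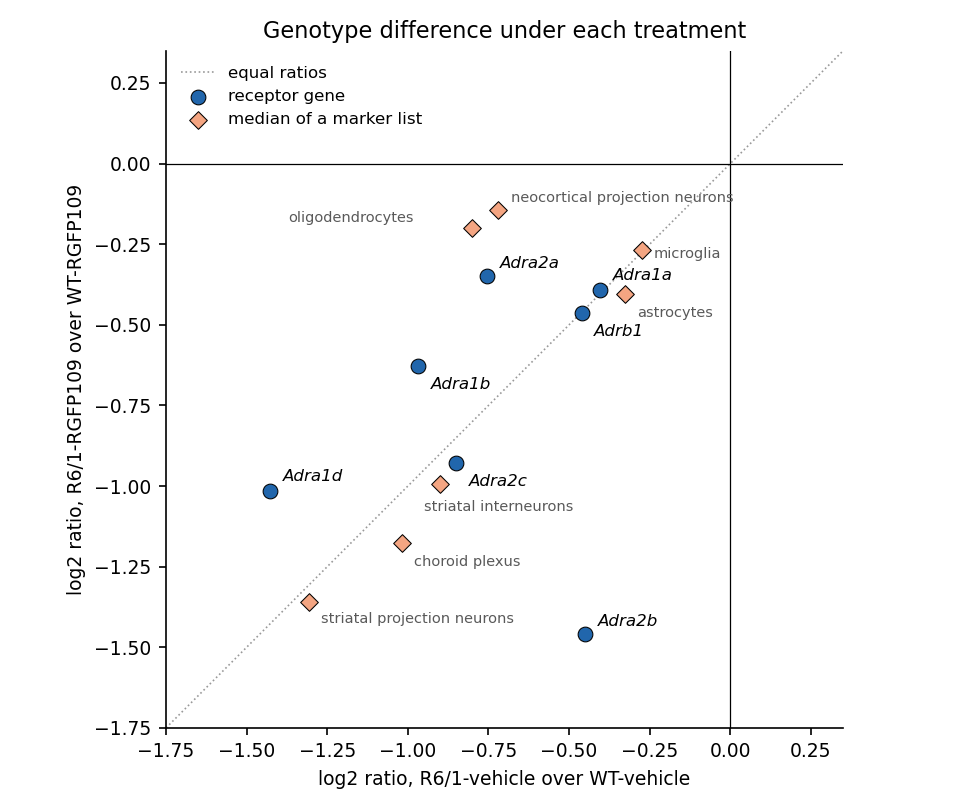
Genotype log2 ratio with vehicle (horizontal axis) against that with RGFP109 (vertical axis) for the 7 receptors (circles) and for the medians of 7 cell type marker lists (diamonds), with a dotted line of equal ratios. Adra1a, Adrb1 and Adra2c lie near the line, Adra1b, Adra1d and Adra2a above it together with the neocortical and oligodendrocyte medians, and Adra2b far below it.

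Comparing R6/1-RGFP109 with R6/1-vehicle, 0 of 7 receptors were past the fold, where 5.16% of the 16651 genes measured were, in either direction. Adra1d had 0.996 FPKM in R6/1-vehicle and 1.36 in R6/1-RGFP109 on the scale of that table, a log2 ratio of 0.43 that was higher than that of 97.1% of genes. Adra2a followed with a log2 ratio of 0.30, higher than that of 95.2% of genes, and Adra1b with 0.23. Adra2c itself had 12.4 and 11.1 FPKM, a log2 ratio of -0.16. Adrb1 (0.12), Adra1a (0.06) and Adra2b (-0.11) lay nearer to 0. The comparison shares R6/1-vehicle with the genotype comparison above, so that a low value of that group would enter both with opposite sign.

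Comparing WT-RGFP109 with WT-vehicle, 1 of 7 receptors (Adra2b) was past the fold, where 7.24% of the 16722 genes measured were, in either direction. Adra2b had 0.415 FPKM in WT-vehicle and 0.815 in WT-RGFP109, a log2 ratio of 0.89. The log2 ratios of the other 6 receptors lay between -0.11 (Adra1b) and 0.12 (Adrb1). None of these 6 came near the fold.

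Treated R6/1 mice were also set against vehicle wild type mice. In R6/1-RGFP109 4 of 7 receptors (Adra1b, Adra1d, Adra2b and Adra2c) were lower than in WT-vehicle by more than the fold, where 13.2% of the 16732 genes measured were. Adra2c had the lowest log2 ratio at -1.01, next to Adra1d at -0.998. Adra1a and Adrb1 had log2 ratios of -0.34 each, and Adra2a had -0.45. All 7 receptors were below their WT-vehicle value in this table.

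**Figure D3:**
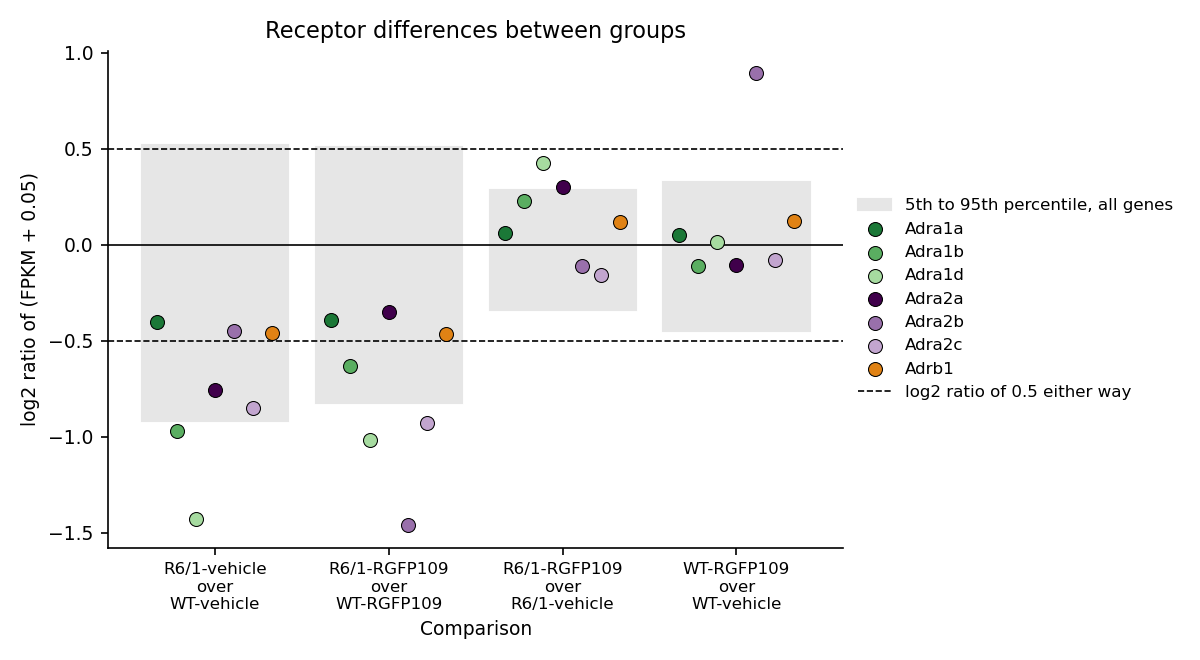
Log2 ratio of (FPKM + 0.05) of each receptor in 4 comparisons, with grey boxes from the 5th to the 95th percentile of all genes measured and dashed lines at the fold of 0.5. All 7 points lie below 0 in both genotype comparisons, and in the treatment comparisons only Adra2b in wild type mice, at 0.89, lies outside the dashed lines. In R6/1 mice by treatment, Adra1d and Adra2a lie above the grey box but inside the dashed lines.

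Genes that act downstream of the receptors were counted in lists by G protein, and their counts are to be read against the 12.9% of all genes that were lower by more than the fold with vehicle and the 11.2% with RGFP109. Of 13 genes of Gq signaling, 4 were lower by more than the fold in R6/1-vehicle and none was higher, with a list median of -0.40. Itpr1, an IP3 receptor that releases calcium from the endoplasmic reticulum, had 114.7 FPKM in WT-vehicle and 64.3 in R6/1-vehicle (log2 ratio -0.83). Prkcb, a protein kinase C and the most abundant gene of the list, had 162.6 and 95.6 FPKM (log2 ratio -0.77), and Gna14, a rare Gq-family subunit, 0.168 and 0.0997 FPKM (log2 ratio -0.54). With RGFP109 4 of the 13 were also lower, led by Prkcb (-0.82), Itpr1 (-0.78) and the phospholipase Plcb1 (-0.66). The 4 genes past the fold were not the same under both treatments, but those called under only 1 treatment were lower under both. With vehicle and RGFP109 the log2 ratios were -0.54 and -0.28 for Gna14 and -0.51 and -0.45 for Plcb3. They were -0.49 and -0.66 for Plcb1 and -0.41 and -0.59 for Itpr3.

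Of 11 genes of Gi and Go signaling, 1 was lower by more than the fold with vehicle, with a list median of -0.04. This was Kcnj9, a subunit of the potassium channels that Gi and Go open, at 31.8 FPKM in WT-vehicle and 21.2 in R6/1-vehicle (log2 ratio -0.58). Gnao1, the Go alpha subunit and the most abundant gene of the list, had a log2 ratio of -0.24. With RGFP109 1 of the 11 was lower, the potassium channel subunit Kcnj5 (log2 ratio -0.53), which had under 0.5 FPKM in each group. Of 12 genes of Gs and Golf signaling, 3 were lower with vehicle, with a list median of -0.08. All 3 were adenylate cyclases, Adcy5, the main striatal form, with 220.6 FPKM in WT-vehicle and 97.6 in R6/1-vehicle (log2 ratio -1.18), Adcy1 (log2 ratio -0.88) and Adcy9 (log2 ratio -0.56). The 1 of 11 genes of the Gi and Go list is near the share of all genes. Gnas, which encodes the Gs alpha subunit and was the most abundant gene of the list, had a log2 ratio of -0.07. With RGFP109 1 of the 12, Adcy5 (log2 ratio -1.24), was lower by more than the fold, again near the share of all genes. Of 7 receptor kinases and arrestins, which switch off activated receptors, 0 were past the fold in any comparison, and Arrb1, the most abundant in WT-vehicle, had a log2 ratio of -0.22 with vehicle.

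**Figure D4:**
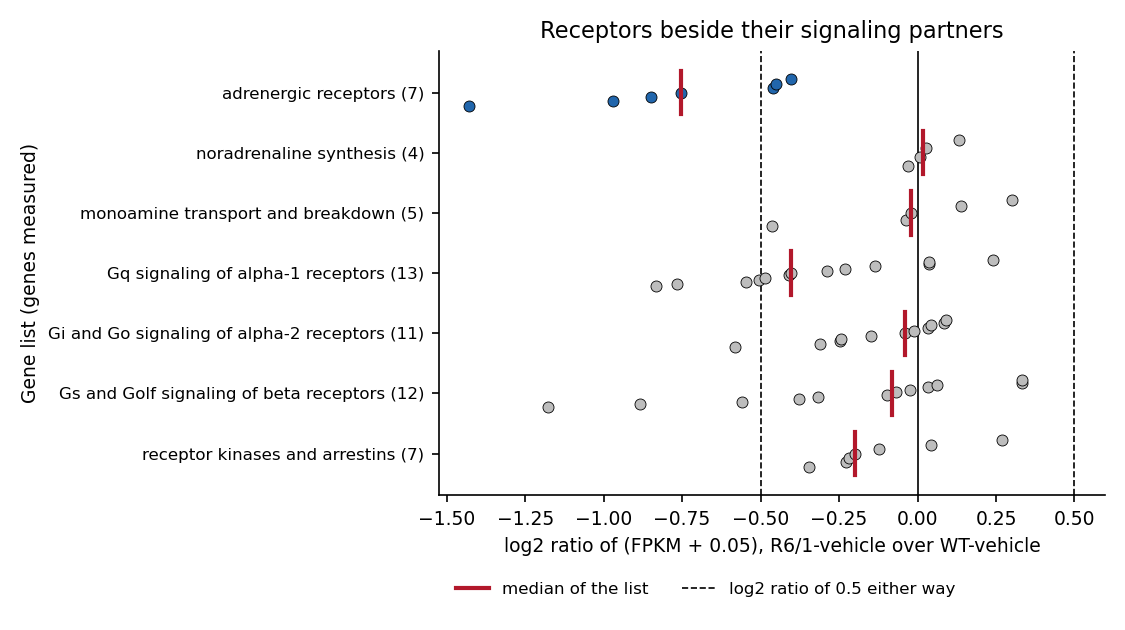
Log2 ratio of R6/1-vehicle over WT-vehicle for each measured gene (points) of the receptors and of 6 signaling and noradrenaline lists, with the list median as a red bar and dashed lines at the fold of 0.5. The receptor median (-0.75) lies below those of the other lists, of which the Gq list (-0.40) is the lowest, and no gene lies above the upper dashed line.

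Genes of the ligand were set beside the receptors. None of the 4 genes of noradrenaline synthesis was past the fold with vehicle, and their log2 ratios lay between -0.03 and 0.13. Th, tyrosine hydroxylase, had 4.29 FPKM in WT-vehicle and 8.84 in WT-RGFP109 (log2 ratio 1.03), and in the same comparison Dbh, which makes noradrenaline from dopamine, had a log2 ratio of 0.51 at 0.143 and 0.225 FPKM, and Pnmt, which makes adrenaline, one of -0.60. These 3 of the 4 synthesis genes were past the fold, where 7.24% of the 16722 genes measured were, in either direction. Dbh passed it narrowly and at a low level. WT-RGFP109 was the group that stood apart for these 3 genes and for Adra2b, but not in 1 direction. Its values were the highest for Th, Dbh and Adra2b and the lowest for Pnmt (1.15 FPKM in WT-vehicle and 0.747 in WT-RGFP109). With RGFP109 the genotype log2 ratios were accordingly -1.27 for Th, -0.68 for Dbh and 0.52 for Pnmt. Ddc, the most abundant synthesis gene in 3 of the 4 groups, stayed within the fold in every comparison. Of 5 measured genes of monoamine transport and breakdown, 0 were past the fold with vehicle and 1 was lower with RGFP109, Slc22a3, an extraneuronal monoamine transporter, with 2.99 FPKM in WT-RGFP109 and 1.46 in R6/1-RGFP109 (log2 ratio -1.01). No measured gene of the 6 signaling and noradrenaline lists was past the fold between R6/1-RGFP109 and R6/1-vehicle, where 5.16% of all genes measured were, in either direction.

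The labelled tissue was checked against marker genes. Marker counts between the genotypes, here and below, are to be read against the shares of all genes lower by more than the fold. These were 12.9% with vehicle and 11.2% with RGFP109. All 10 markers of striatal projection neurons were abundant, summing to 3387 FPKM in WT-vehicle and 1319 in R6/1-vehicle mice, and 3279 in WT-RGFP109 and 1189 in R6/1-RGFP109 mice. 8 of 10 were lower by more than the fold in R6/1 mice with vehicle (list median -1.31) and 9 of 10 with RGFP109 (-1.36), beside the lower Adra2c under both treatments. All 7 striatal interneuron markers were lower in both genotype comparisons (medians -0.90 and -0.99). In bulk tissue fewer cells of a type and less RNA per cell cannot be told apart. Among markers of noradrenergic neurons, Phox2a and Slc6a2 were under 0.1 FPKM in each group and so near 0, while Dbh passed the minimum at a low level, with 0.127 to 0.233 FPKM.

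Markers of tissue next to the striatum also differed between groups. The 8 markers of neocortical projection neurons summed to 365 FPKM in WT-vehicle and 204 in R6/1-vehicle mice, and 340.2 in WT-RGFP109 and 259.4 in R6/1-RGFP109 mice. With vehicle 7 of 8 were lower in R6/1 mice by more than the fold (median -0.72), and with RGFP109 0 of 8 were (median -0.14). Between R6/1-RGFP109 and R6/1-vehicle 3 of 8 were higher by more than the fold (median 0.44), where 2.36% of all genes measured were. Adra1b, Adra1d and Adra2a had their larger genotype ratio with vehicle too, and their positive ratios with treatment stood in the same R6/1 groups. With RGFP109, however, Adra1b (-0.63) and Adra1d (-1.02) were still lower by more than the fold, while Adra2a (-0.35) was not. The oligodendrocyte marker median was also further below 0 with vehicle (-0.80) than with RGFP109 (-0.20). The part of neocortical or oligodendrocyte RNA in the values of Adra1b, Adra1d and Adra2a was not tested. The 6 markers of choroid plexus summed to 38.0 FPKM in WT-vehicle and 22.4 in R6/1-vehicle mice, and 15.1 in WT-RGFP109 and 8.94 in R6/1-RGFP109 mice. Between the genotypes, 5 of these 6 were lower in R6/1 mice by more than the fold with vehicle (median -1.02) and 5 of 6 with RGFP109 (median -1.18). All 6 choroid plexus markers were lower with RGFP109 by more than the fold in either genotype. Of all genes measured, 2.80% were lower in R6/1 mice by treatment and 4.37% in wild type mice by treatment. Adra2b, the only receptor past the fold with treatment, was higher in 1 of these 2 treated groups and not in the other, and the part of choroid plexus RNA in its values was not tested.

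For the 5 receptors with at least 1 FPKM in all 4 groups, the genes with the most similar pattern were found by the Euclidean distance between the 3 log2 ratios to WT-vehicle, among 12991 genes. For Adra2c the nearest were Syt12, Lingo3 and 6430411K18Rik, at distances from 0.04 to 0.07, and 17 genes lay within 0.1. For Adra1b the nearest were Zcwpw1, Id2 and Ttc9b (0.03 to 0.06) and for Adra2a they were Rai14, Hs3st4 and Trappc6a (0.05 to 0.07), with 6 genes within 0.1 of either receptor. How many genes lie within 0.1 of other genes with ratios as large was not computed, so these counts do not show that a pattern is rare. Adra1a was nearest to Arid5a, Slc1a3 (the glutamate transporter of astrocytes) and Tmem141, with 148 genes within 0.1, and Adrb1 to Lix1, Cpne4 and Nwd2, with 29 genes within 0.1. Each distance rests on 3 ratios that share the WT-vehicle values.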

How the data were processed

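Striatal RNA was sequenced as single reads of 51 bp with a TruSeq RNA kit. The libraries ran in 2 pools of 12, and the paper splits each group over both pools, not always evenly. The pooled group values do not separate the pools. The authors aligned the reads with STAR 2.5.0b to RefSeq transcripts of mm10, estimated FPKM with Cufflinks 2.2.1 and compared each pair of groups with Cuffdiff. The deposited tables hold 1 FPKM value per group and gene, pooled over the libraries of the group, along with the authors' fold changes, test statistics, p-values and q-values, which were not used here. Values per library were also not used. Names with MUT in the tables were read as R6/1. Each table was scaled by itself. The values of a group differed between tables by a single factor (medians from 1.00 to 1.04, with 100% of genes at 1 FPKM or more within 1% of it), so differences were taken within a table and levels from the table that compares the genotypes under the same treatment. Because there is 1 value per group, no test, error or interval was computed, and depth is unknown since the tables give no counts.

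Log2 ratios were computed after adding 0.05 FPKM, which understates changes of low genes, for genes with a mean of at least 0.1 FPKM. The receptors and the gene lists were chosen with earlier results of these data known. Named genes were all 7 receptors, of each signaling or noradrenaline list up to 3 genes past the fold with the largest ratio and the most abundant gene, and the 3 genes nearest in pattern to a receptor. Values of some genes on the noradrenaline lists are not reported here. Genes with the locus of Adra1d, and Plcb3 and Itpr3, were named after their values were seen. The scripts were tested on simulated data. The older symbols Adrbk1 and Adrbk2 were used for 2 receptor kinases. Coordinates are those of the tables with 1 added to the start. Gene models were from GENCODE M21 and promoter sequences from RefSeq, both on GRCm38, the assembly of mm10. The tables were read with pandas 2.3.3 and numpy 2.4.6 in Python 3.11.15, and figures were drawn with matplotlib 3.10.9.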

Additional observations from a re-analysis of the deposited data

How the results depend on the processing

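For each of the 5 comparisons, 8 alternatives were run: other folds, pseudocounts and minimum values, centring on the median of all genes, and ratios taken through another group. With a fold of 0.3, 7 receptors were past it in both genotype comparisons and in treated R6/1 mice against vehicle wild type mice, and 1 (Adra1d) between R6/1-RGFP109 and R6/1-vehicle, where 22.4% (vehicle) and 19.6% (RGFP109) of all genes were lower between the genotypes, 22.3% were lower in treated R6/1 mice against vehicle wild type mice and 10.6% were past it in either direction in R6/1 mice by treatment. With a fold of 1, 1 receptor (Adra1d) was past it between the genotypes with vehicle, 2 (Adra1d and Adra2b) with RGFP109, 1 (Adra2c) in treated R6/1 mice against vehicle wild type mice and 0 in wild type mice by treatment. The shares of all genes lower by a fold of 1 were 4.13%, 3.46% and 4.15% in the first 3 of these, and 2.77% were past it in either direction in wild type mice by treatment. The 1 receptor counted in wild type mice by treatment, Adra2b, was also lost with a pseudocount of 1 FPKM (0 receptors, log2 ratio 0.36) and with a minimum of 1 FPKM (0 receptors). A pseudocount of 1 FPKM further brought Adra1b with RGFP109 to -0.47 and Adra2b in treated R6/1 mice against vehicle wild type mice to -0.17, both within the fold. The remaining counts stayed within 1.5 times of the value reported, and no receptor past the fold changed sign under any of these alternatives.

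No paired analysis was possible because the tables hold 1 pooled value per group. Replicates were not left out in turn for the same reason. The depth behind each value is unknown.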

Other observations

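Marker lists of other cell types gave further values for the same groups, with 1 value per group and no test. Of 7 oligodendrocyte markers, 5 were lower in R6/1 mice by more than the fold with vehicle (median log2 ratio -0.80) and 0 with RGFP109 (median -0.20), and in wild type mice 1 of 7, Opalin, was lower with RGFP109 (log2 ratio -0.55, list median -0.42). Opalin is named for its place in that count, after its value was seen. Of all genes measured, 4.37% were lower by more than the fold in the same wild type comparison. Of 8 astrocyte markers, 1 was lower with vehicle (median -0.33) and 2 with RGFP109 (median -0.40). These were Slc1a2 with vehicle (log2 ratio -0.73), and Slc1a2 and Aqp4 with RGFP109 (-0.68 and -0.55). None of 7 microglia markers was past the fold in any comparison, with genotype medians of -0.28 with vehicle and -0.27 with RGFP109. Of 7 endothelial and mural markers, the same 2, Cldn5 and Slco1c1, were lower in both genotype comparisons (list medians -0.27 and -0.22).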
